A study of Mus musculus with 9 samples.

Results

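The 10 genes described here mark the lymphocytes of the lung that act against single target cells: 5 genes of T cells (Cd3d, Cd3e, Cd3g, Cd4 and Cd8a) and 5 genes of natural killer (NK) cells and cytotoxic cells (Nkg7, Gzma, Prf1, Ncr1 and Klrb1c). They were chosen by name as markers of these cells, and were found through their Ensembl identifiers in GENCODE M21 (GRCm38), with FPKM summed over the rows of each gene. FPKM counts fragments per kilobase of transcript, scaled to the mapped fragments of a library. All 10 were in the table of 27203 gene IDs, and all 10 were among the 19378 genes with a mean of at least 0.1 FPKM that were tested.

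The lungs came from male C57BL/6 mice of 6 to 8 weeks, with 3 libraries per group. Control mice were intubated and breathed without a ventilator. In the ventilator-induced lung injury (VILI) groups, mice were ventilated for 4 hours with a tidal volume of 20 ml/kg, and lungs were taken at once (VILI 0 h) or 6 hours later (VILI 6 h). All mice, controls included, were wild type as far as the labels tell, and whole lung was used, so blood cells and resident cells were measured together. In such tissue, fewer cells of a type and less RNA per cell cannot be told apart.

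T cells recognise peptides through the T cell receptor, whose signal is carried into the cell by the CD3 chains. The coreceptors CD4 and CD8 bind MHC class II and class I molecules and divide helper from cytotoxic T cells. NK cells carry no such receptor. They weigh activating against inhibitory receptors and kill with perforin and granzymes, and the lung holds many of them in its vascular bed. Cytotoxic T cells use the same granule proteins, so Nkg7, Gzma and Prf1 are shared between both cell types, while Ncr1 and Klrb1c are closer to NK cells.

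The genes lie at a few places in GRCm38. Cd3g (chr9:44969572-44980431, minus strand), Cd3d (chr9:44981786-44987339, plus strand) and Cd3e (chr9:44998740-45009627, minus strand) form a cluster of 40.1 kb, and the starts of Cd3g and Cd3d are 1355 bp apart and point away from each other. Cd4 (chr6:124864692-124888221) and Klrb1c (chr6:128778485-128789215) are both on the minus strand of chromosome 6, and Cd8a (chr6:71373427-71379173) is on its plus strand. Nkg7 (chr7:43437073-43438249) and Ncr1 (chr7:4337724-4345164) are on the plus strand of chromosome 7. Gzma is at chr13:113093825-113100981 on the minus strand and Prf1 at chr10:61297833-61304680 on the plus strand. The values are for whole genes with their exons and UTRs.

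The promoters of the NK cell genes are shown, with those of Cd3d and Cd3e beside them. Over the libraries, 4 of the NK cell genes, all but Ncr1, moved together, and so did the T cell genes, as described further on. Whether the motifs have a part in this was not tested. Sequences are from RefSeq for GRCm38.p6, 300 bases each, from 250 before to 50 after the gene start, written on the strand of the gene. Capitals mark 3 of the motifs searched, on either strand. GGAAG is the core of sites for ETS factors. TGTGGT is the core of sites for RUNX factors. TCACAC is the core of sites for T-box factors such as T-bet. A match on the opposite strand is seen as the reverse complement.

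Nkg7: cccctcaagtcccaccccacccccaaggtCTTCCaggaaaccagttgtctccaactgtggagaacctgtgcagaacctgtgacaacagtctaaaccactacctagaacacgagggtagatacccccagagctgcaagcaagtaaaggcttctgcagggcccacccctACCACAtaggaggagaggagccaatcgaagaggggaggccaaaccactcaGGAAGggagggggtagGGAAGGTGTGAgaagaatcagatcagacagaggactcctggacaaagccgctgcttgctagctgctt
Gzma: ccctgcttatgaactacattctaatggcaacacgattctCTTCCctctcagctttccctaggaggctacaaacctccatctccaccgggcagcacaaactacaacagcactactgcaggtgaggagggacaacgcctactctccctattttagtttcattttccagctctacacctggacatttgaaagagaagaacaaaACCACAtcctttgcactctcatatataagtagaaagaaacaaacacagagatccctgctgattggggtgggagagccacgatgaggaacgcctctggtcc
Prf1: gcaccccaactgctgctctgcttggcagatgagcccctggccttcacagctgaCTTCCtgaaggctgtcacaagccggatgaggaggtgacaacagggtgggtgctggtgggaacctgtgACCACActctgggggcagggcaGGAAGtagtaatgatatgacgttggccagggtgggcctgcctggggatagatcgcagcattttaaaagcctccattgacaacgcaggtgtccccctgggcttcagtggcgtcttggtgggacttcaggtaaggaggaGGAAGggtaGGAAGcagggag
Ncr1: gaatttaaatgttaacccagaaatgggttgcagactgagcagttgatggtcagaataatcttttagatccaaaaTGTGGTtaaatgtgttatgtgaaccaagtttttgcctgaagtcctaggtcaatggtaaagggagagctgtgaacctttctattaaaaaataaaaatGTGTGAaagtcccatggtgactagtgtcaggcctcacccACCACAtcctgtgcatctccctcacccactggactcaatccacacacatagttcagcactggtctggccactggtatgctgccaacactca
Klrb1c: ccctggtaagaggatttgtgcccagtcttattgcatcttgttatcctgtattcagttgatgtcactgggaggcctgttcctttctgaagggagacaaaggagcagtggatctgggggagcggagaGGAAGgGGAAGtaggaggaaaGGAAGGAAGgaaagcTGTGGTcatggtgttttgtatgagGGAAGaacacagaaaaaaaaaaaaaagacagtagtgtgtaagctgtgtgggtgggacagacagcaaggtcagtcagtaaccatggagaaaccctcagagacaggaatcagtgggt
Cd3d: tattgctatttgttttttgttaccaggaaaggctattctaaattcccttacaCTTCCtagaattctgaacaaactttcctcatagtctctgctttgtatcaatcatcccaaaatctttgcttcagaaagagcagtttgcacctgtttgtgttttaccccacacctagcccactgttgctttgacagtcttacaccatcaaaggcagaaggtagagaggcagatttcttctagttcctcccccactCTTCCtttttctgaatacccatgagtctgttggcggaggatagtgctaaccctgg
Cd3e: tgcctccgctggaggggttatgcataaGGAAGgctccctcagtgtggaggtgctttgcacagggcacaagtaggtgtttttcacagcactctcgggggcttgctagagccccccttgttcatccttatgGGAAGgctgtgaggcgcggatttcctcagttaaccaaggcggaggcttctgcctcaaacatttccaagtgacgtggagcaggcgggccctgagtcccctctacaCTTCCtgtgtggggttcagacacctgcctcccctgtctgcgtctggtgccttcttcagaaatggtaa

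These windows are chr7:43436888-43437187 for Nkg7, chr13:113100932-113101231 for Gzma, chr10:61297586-61297885 for Prf1, chr7:4337465-4337764 for Ncr1, chr6:128788592-128788891 for Klrb1c, chr9:44981536-44981835 for Cd3d and chr9:45009562-45009861 for Cd3e. Promoters were matched for 9 of the 10 genes, all but Cd4. The RUNX motif was in 5 of 5 NK cell promoters and in 0 of 4 T cell promoters, against 16.8% of all 32851 promoters. Relative to the gene start in RefSeq, which lies 65 bp from the GENCODE start for Nkg7, 574 bp for Klrb1c and at most 16 bp for the other printed genes, the match began at position -83 in Nkg7, -50 in Gzma, -130 in Prf1 and -89 in Klrb1c, and Ncr1 had matches at -176 and -41. The T-box motif was in Nkg7 and Ncr1 and in 14.5% of all promoters, and in Nkg7 it directly follows an ETS match, with no shared base. The ETS motif was in 3 T cell and 4 NK cell promoters and in 71.4% of all. The E-box CAGNTG was in all 9 and in 51.4% of all promoters. The motif of factors such as Gata3, searched as AGATAA, was found only in Cd3g among the 9 and in 11.2% of all promoters. The TATA box, searched as TATAAA, was in 0 of the 9 and in 13.6% of all promoters. Such matches are a description of the letters and not binding sites.

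In the control lungs, Gzma, the protease granzyme A, had the highest level of the 10 genes, with 14.8 ± 1.34 FPKM (mean ± SD, n = 3). Nkg7 (5.83 ± 0.933 FPKM), Cd3g (5.70 ± 0.979 FPKM), Cd3e (4.19 ± 0.731 FPKM) and Ncr1 (3.77 ± 0.362 FPKM) followed, each overlapping the next in this order. Cd3d (2.38 ± 0.275 FPKM), Klrb1c (2.23 ± 0.279 FPKM), Cd8a (2.16 ± 0.548 FPKM), Prf1 (1.89 ± 0.263 FPKM) and Cd4 (1.84 ± 0.435 FPKM) were lowest and also overlapped from one to the next. Only the steps from Gzma to Nkg7 and from Ncr1 to Cd3d separated neighbours in all control libraries.

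Libraries stood apart within the VILI groups. VILI 6 h replicate 1 was the lowest of the 9 libraries for 8 of the 10 genes, among them all 5 T cell genes. VILI 6 h replicate 3 was the highest for 4 of the 5 NK cell genes, and VILI 0 h replicate 1 was the highest for 4 of the 5 T cell genes. In VILI 6 h replicate 1, Hba-a1, a haemoglobin gene of red blood cells, was at 136 FPKM, against 777 to 1354 FPKM in the other 8 libraries. The 10 B cell markers were lower there as well, with a median log2 difference from the control mean of -1.90. The part of these differences between libraries in the results was not tested, and the main fold changes, correlations and counts are given below also without single libraries. Where a VILI 6 h library was left out, fold changes at 0 hours stayed as they were, and counts at 0 hours could still change because the fit shares 1 estimate of the spread.

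**Figure D1:**
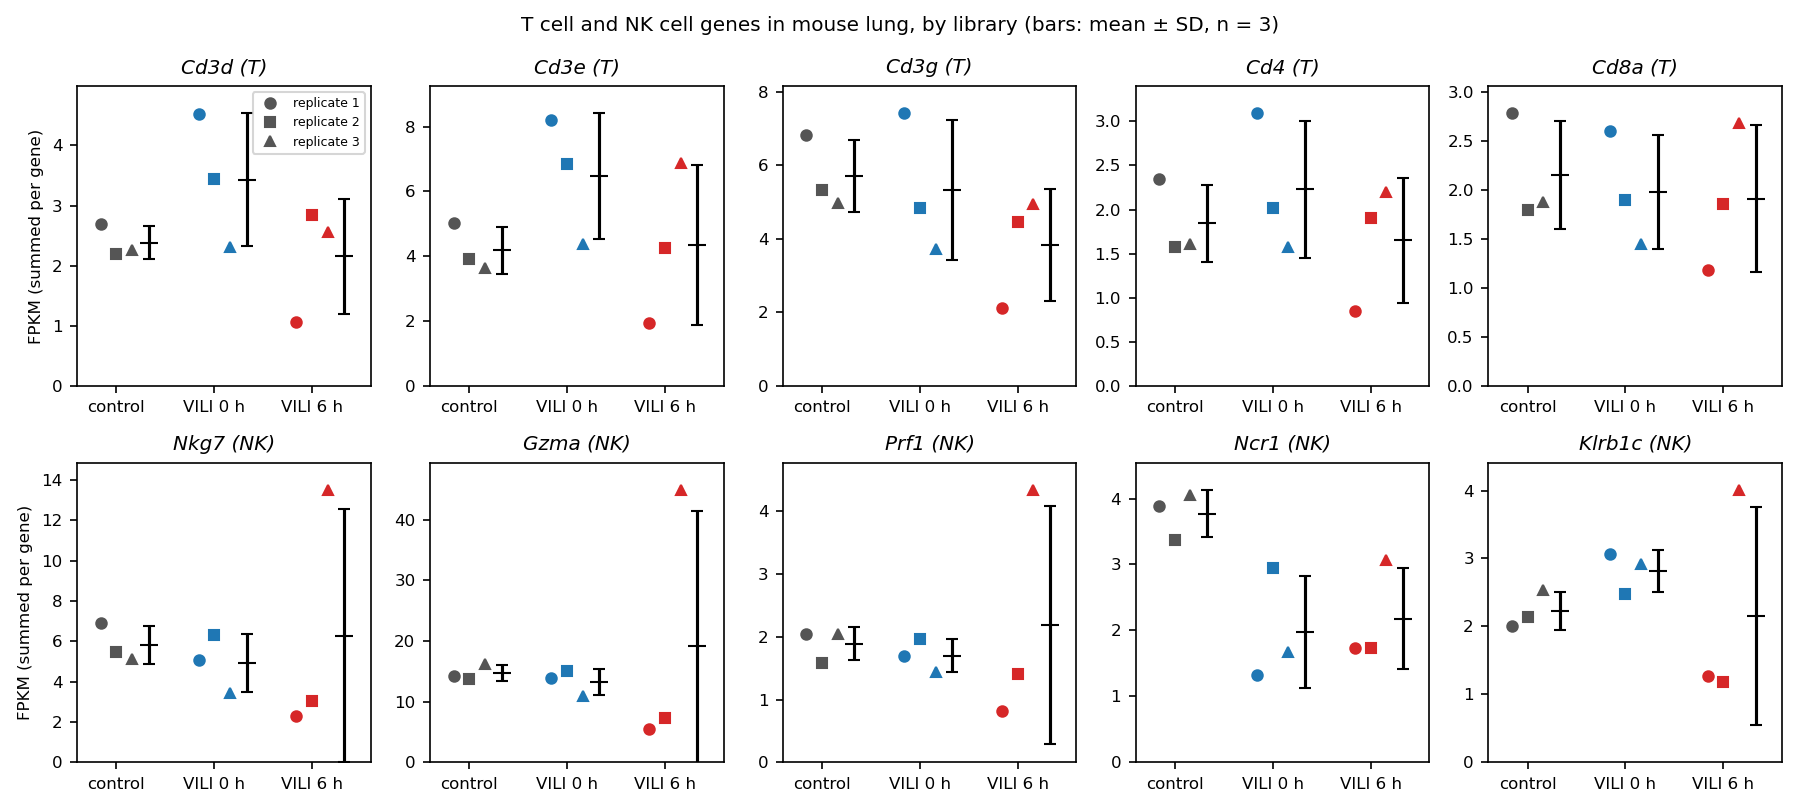
FPKM of the 10 genes in each of the 9 libraries, 1 panel per gene (vertical axis FPKM), with a point per library numbered by replicate and the mean and SD of the 3 libraries of a group, where an SD that reaches past 0 ends at the axis. Ncr1 lies below all control libraries in both VILI groups, and Gzma in VILI 6 h runs from 5.49 to 45.0 FPKM.

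For the T cell genes, the CD3 chains come first. Cd3e, the epsilon chain that pairs with both other CD3 chains, was at 5.02, 3.90 and 3.64 FPKM in the control libraries, at 8.20, 6.85 and 4.38 FPKM in VILI 0 h and at 1.94, 4.27 and 6.88 FPKM in VILI 6 h. Its VILI 0 h libraries were the higher ones on average, but the lowest of them lay within the control range. The log2 fold change was 0.58 ± 0.40 (SE) in VILI 0 h vs control (limma, adjusted p = 0.517) and -0.10 ± 0.40 in VILI 6 h vs control (limma, adjusted p = 0.903).

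Cd3d, the delta chain, was at 2.70, 2.19 and 2.26 FPKM in the control libraries, at 4.53, 3.44 and 2.32 FPKM in VILI 0 h and at 1.06, 2.85 and 2.56 FPKM in VILI 6 h. As for Cd3e, VILI 0 h replicates 1 and 2 were above all controls and replicate 3 was not. Its log2 fold changes were 0.46 ± 0.36 at 0 hours (limma, adjusted p = 0.563) and -0.24 ± 0.36 at 6 hours (limma, adjusted p = 0.718), both against control. Between the VILI groups, Cd3d was lower at 6 hours by a log2 of -0.71 ± 0.36 (limma, adjusted p = 0.551), which did not pass the test and was -0.28 without VILI 6 h replicate 1. The value at 0 hours was 0.24 without VILI 0 h replicate 1.

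Cd3g, the gamma chain, was at 6.81, 5.32 and 4.96 FPKM in the control libraries, at 7.41, 4.84 and 3.71 FPKM in VILI 0 h and at 2.11, 4.44 and 4.95 FPKM in VILI 6 h. The VILI 6 h libraries lay below all controls, though only just, with 4.953 FPKM in the highest of them and 4.962 FPKM in the lowest control. The log2 fold change of -0.64 ± 0.34 in VILI 6 h vs control did not pass the test (limma, P = 0.0921, adjusted p = 0.310, and exact permutation p = 0.1, the smallest that 3 against 3 libraries allow). It was -0.26 without VILI 6 h replicate 1.

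Setting the CD3 chains against each other within a library removes what all of them share. The ratio of Cd3g to Cd3e was 1.36 in each of the 3 control libraries, 0.904, 0.707 and 0.848 in VILI 0 h and 1.08, 1.04 and 0.720 in VILI 6 h. All 6 VILI libraries were below the controls, VILI 6 h replicate 1 included. The ratio of Cd3d to Cd3e, 0.537 to 0.619 in control, overlapped in both VILI groups (0.503 to 0.552 and 0.372 to 0.668). The ratio was chosen after its values had been seen, so no test is given.

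Cd4, the coreceptor of helper T cells that some lung macrophages and dendritic cells also carry, was at 2.35, 1.57 and 1.61 FPKM in the control libraries, at 3.09, 2.02 and 1.58 FPKM in VILI 0 h and at 0.854, 1.90 and 2.20 FPKM in VILI 6 h. The 3 groups overlapped, and the log2 fold changes against control were 0.23 ± 0.37 and -0.22 ± 0.37 (limma, adjusted p = 0.792 and adjusted p = 0.743).

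Cd8a, a chain of the coreceptor of cytotoxic T cells and of some dendritic cells, was at 2.79, 1.80 and 1.88 FPKM in the control libraries, at 2.603, 1.90 and 1.45 FPKM in VILI 0 h and at 1.19, 1.86 and 2.69 FPKM in VILI 6 h. It varied least over the 9 libraries, 2.35-fold from lowest to highest, with log2 fold changes against control of -0.12 ± 0.32 and -0.21 ± 0.32 (limma, adjusted p = 0.885 and adjusted p = 0.729). The ratio of Cd4 to Cd8a was 0.842 to 0.874 in control, 1.06 to 1.19 in VILI 0 h and 0.719 to 1.02 in VILI 6 h. The VILI 0 h libraries were all above the controls in this ratio, and those of VILI 6 h fell on both sides. It is given as a description.

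Of the NK cell genes, the receptors come first. Ncr1, which encodes the activating receptor NKp46, was at 3.89, 3.37 and 4.06 FPKM in the control libraries, at 1.32, 2.94 and 1.68 FPKM in VILI 0 h and at 1.73, 1.74 and 3.07 FPKM in VILI 6 h. All 6 VILI libraries were below the lowest control library. Its log2 fold change was -0.97 ± 0.31 at 0 hours against control (limma, P = 0.0116, adjusted p = 0.180; exact permutation p = 0.1). At 6 hours against control it was -0.81 ± 0.31 (limma, P = 0.0273, adjusted p = 0.194; exact permutation p = 0.1). With both VILI groups against control it was -0.89 ± 0.27 (limma, P = 0.00852, adjusted p = 0.119; exact permutation p = 0.0238 over 84 divisions). Ncr1 thus passed the unadjusted threshold of the study in each comparison with control and the adjusted threshold in none. At 6 hours against control it lost the unadjusted threshold with median-centred libraries (log2 fold change -0.68) and without control replicate 1 or 3 or VILI 6 h replicate 1 or 2. It did not differ between the VILI groups beyond the spread (0.16 ± 0.31, limma, adjusted p = 0.907).

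The Ncr1 value is a sum of 2 rows, and the result differs between the sum and a single row. The first row was at 2.06, 1.04 and 1.41 FPKM in the control libraries, at 0.610, 1.04 and 1.67 FPKM in VILI 0 h and at 0.522, 1.32 and 0.898 FPKM in VILI 6 h. The second row was at 1.83, 2.33 and 2.65 FPKM in the control libraries, at 0.708, 1.90 and 0.0131 FPKM in VILI 0 h and at 1.21, 0.416 and 2.18 FPKM in VILI 6 h. Each row alone overlapped between control and both VILI groups, while their sum did not. With the second row alone, which has the higher mean, Ncr1 did not pass the threshold at 0 hours (log2 fold change -2.05) or at 6 hours (-1.02).

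Klrb1c, which encodes the receptor NK1.1 of C57BL/6 NK cells, was at 2.01, 2.13 and 2.54 FPKM in the control libraries, at 3.07, 2.47 and 2.92 FPKM in VILI 0 h and at 1.27, 1.19 and 4.01 FPKM in VILI 6 h. Of its VILI 0 h libraries, 2 were above all controls and 1 within their range, and those of VILI 6 h lay 2 below and 1 above them. The log2 fold changes against control were 0.33 ± 0.39 and -0.26 ± 0.39 (limma, adjusted p = 0.72 and adjusted p = 0.722). In the ratio of Ncr1 to Klrb1c, all 6 VILI libraries (0.429 to 1.19 at 0 hours and 0.766 to 1.46 at 6 hours) were below the controls (1.58 to 1.94), again a description.

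Gzma was at 14.2, 13.8 and 16.3 FPKM in the control libraries, at 13.9, 15.1 and 10.96 FPKM in VILI 0 h and at 5.49, 7.34 and 45.0 FPKM in VILI 6 h. The VILI 0 h libraries stayed near the controls, and the VILI 6 h libraries lay 2 below and 1 above all others, 8.18-fold from lowest to highest. The mean of 19.3 ± 22.3 FPKM (SD, n = 3) at 6 hours therefore describes none of its libraries, and the log2 fold change against control was -0.27 ± 0.63 (limma, adjusted p = 0.828).

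Prf1, the pore-forming protein perforin, was at 2.04, 1.59 and 2.04 FPKM in the control libraries, at 1.69, 1.97 and 1.45 FPKM in VILI 0 h and at 0.815, 1.41 and 4.34 FPKM in VILI 6 h. It had the same order of the VILI 6 h libraries as Gzma. The log2 fold changes against control were -0.14 ± 0.48 and -0.11 ± 0.48 (limma, adjusted p = 0.913 and adjusted p = 0.909).

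Nkg7, a membrane protein of cytotoxic granules, was at 6.89, 5.48 and 5.12 FPKM in the control libraries, at 5.07, 6.29 and 3.44 FPKM in VILI 0 h and at 2.32, 3.02 and 13.5 FPKM in VILI 6 h. Replicates 1 and 2 of VILI 6 h were again below every control and replicate 3 above. The log2 fold changes against control were -0.27 ± 0.55 and -0.33 ± 0.55 (limma, adjusted p = 0.852 and adjusted p = 0.749).

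**Figure D2:**
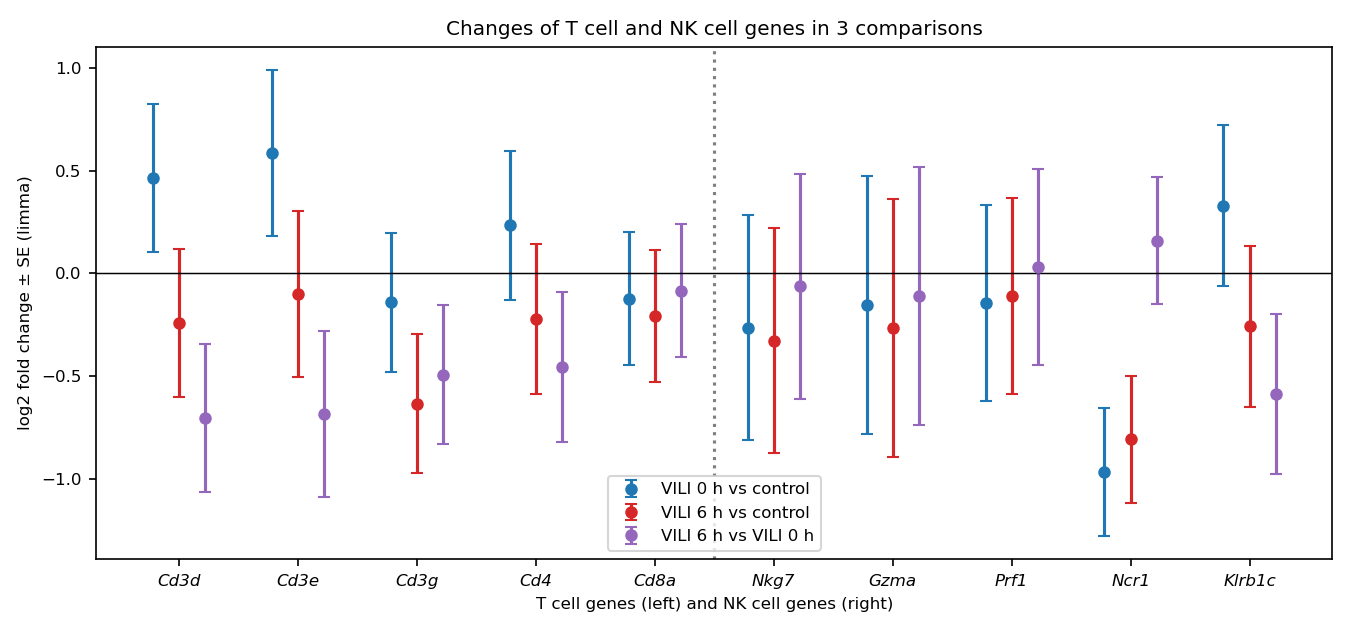
Log2 fold change with its SE (vertical axis, limma on log2(FPKM + 0.1)) of the 10 genes in 3 comparisons, T cell genes left and NK cell genes right of the dotted line. Ncr1 lies at -0.97 and -0.81 against control, and the SE of Gzma (0.63) is the widest.

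Counted together, 1 of the 10 genes passed the unadjusted P threshold of 0.05 at 0 hours against control, where 16.2% of all genes tested did, 9.35% of all genes tested with lower values. At 6 hours against control it was again 1 of 10, against 20.4% of all genes (12.2% lower). Between 6 and 0 hours, 0 of 10 were higher and 0 of 10 lower, against 5.06% and 4.94% of all genes. With both VILI groups against control it was 1 of 10, against 20.7% (12.7% lower). The 1 gene was Ncr1 each time. Among 10 genes, counts of 0 or 1 are near these shares of all genes, and nothing is concluded from them. An adjusted p under 0.05 was reached by 0 of the 10 genes in any comparison, and by 0.284%, 0.702%, 0.0% and 0.975% of all genes in the same order. Groups that did not overlap, with VILI lower, were seen for Ncr1 at 0 hours (21.6% of all genes) and for Ncr1 and Cd3g at 6 hours (15.0% of all genes), and with both VILI groups together for Ncr1 (8.14% of all genes).

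The intervals show what these groups of 3 libraries leave possible. For Gzma in VILI 6 h vs control, the 95% interval of the log2 fold change ran from -1.68 to 1.14, and for Nkg7 from -1.56 to 0.90. For the T cell genes the intervals were narrower, as for Cd8a (-0.94 to 0.52). A change of a log2 of 0.5 in either direction lay within the intervals of Gzma, Nkg7 and Cd8a, so a P over the threshold does not show that the levels were equal.

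As groups, the median log2 fold change of the T cell genes was 0.23 at 0 hours and -0.22 at 6 hours against control, and -0.49 between 6 and 0 hours. All 5 were lower at 6 than at 0 hours, none past the test, and the median was -0.12 without VILI 6 h replicate 1 and -0.72 without VILI 6 h replicate 3. Leaving out 1 library at a time, the T cell median ranged from -0.020 to 0.44 at 0 hours and from -0.48 to 0.16 at 6 hours against control, turning sign without VILI 0 h replicate 1 and without VILI 6 h replicate 1. The NK cell genes had medians of -0.16, -0.27 and -0.06, and the second of these turned to 0.15 without VILI 6 h replicate 1 and to 0.028 without VILI 6 h replicate 2. The median over all genes tested was -0.07, -0.09 and -0.02 in the same comparisons.

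Within single libraries the groups of genes went separate ways, most at 6 hours. The median log2 difference from the control mean in VILI 6 h replicates 1, 2 and 3 was -1.06, 0.04 and 0.27 for the T cell genes and -1.11, -0.91 and 1.17 for the NK cell genes. Replicate 1 was thus low in both, replicate 2 was low in NK cell genes with T cell genes at the control level, and replicate 3 was high mainly in NK cell genes. In VILI 0 h replicates 1, 2 and 3 the medians were 0.74, 0.15 and -0.19 for T cell genes and -0.14, 0.06 and -0.42 for NK cell genes. The T cell minus the NK cell median was between -0.28 and 0.22 in control, between 0.09 and 0.88 in VILI 0 h and between -0.90 and 0.95 in VILI 6 h.

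**Figure D3:**
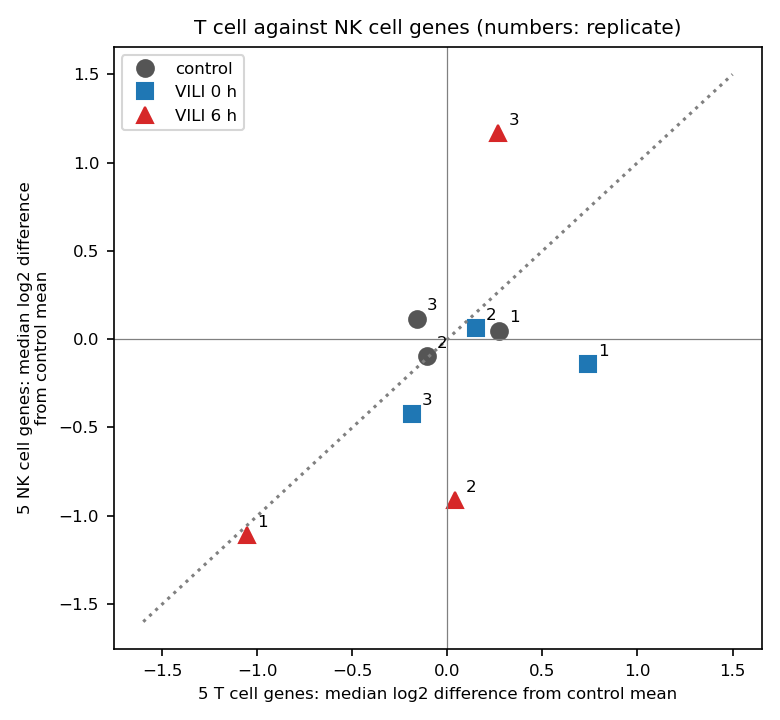
Median log2 difference from the control mean over the 5 T cell genes (horizontal axis) and the 5 NK cell genes (vertical axis), with 1 numbered symbol per library and a dotted line where both are equal. The 3 control libraries lie near the origin, VILI 6 h replicate 1 is low on both axes, and replicates 2 and 3 of that group lie at -0.91 and 1.17 on the NK cell axis.

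Over the 9 libraries, pairs of T cell genes had a median Pearson r of 0.89 (10 pairs, 0.72 to 0.94) on the log2 scale, and pairs of NK cell genes 0.75 (10 pairs, 0.20 to 0.97). Leaving Ncr1 out, the NK cell pairs had a median r of 0.90 (6 pairs). Pairs of a T cell and an NK cell gene had a median r of 0.54 (25 pairs, -0.07 to 0.79). Without VILI 6 h replicate 1, the median r was 0.79 for T cell pairs, 0.63 for NK cell pairs and 0.21 for mixed pairs. Without VILI 6 h replicate 3, it was 0.92, 0.64 and 0.64 in the same order, and without VILI 0 h replicate 1 it was 0.87, 0.79 and 0.65. These are descriptions over libraries that share the differences given above.

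Among 14098 other genes with a mean of at least 1 FPKM, the pattern closest to the mean of the 5 T cell genes was that of Rhoh (r = 0.971 over 9 libraries), a GTPase of blood cells, then Atp2a3 (0.970), Cd247 (0.969), the zeta chain of the T cell receptor complex, Slamf6 (0.965), a lymphocyte receptor, and H2-Eb1 (0.958), an MHC class II chain. The pattern closest to the NK cell genes was that of Ube2l6 (0.983) and Isg15 (0.972), which attach and encode the ubiquitin-like protein ISG15, then H2-Q7 (0.956), an MHC class I gene, Gm4070 (0.947) and Ifi44 (0.939). Without any 1 of the 3 libraries that stood apart, r of these 10 genes stayed between 0.873 and 0.990. Ube2l6, Isg15 and Ifi44 are known as interferon-induced genes. Isg15 was at 7.12, 6.80 and 8.48 FPKM in the control libraries, at 5.01, 6.72 and 5.68 FPKM in VILI 0 h and at 3.25, 4.01 and 19.2 FPKM in VILI 6 h, with the same low and high libraries as Gzma.

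The result at 6 hours depended on single libraries. Without VILI 6 h replicate 3, the log2 fold change against control was -1.20 for Gzma (limma, adjusted p = 0.0511), -1.10 for Nkg7 (limma, adjusted p = 0.141), -0.80 for Klrb1c (limma, adjusted p = 0.136) and -0.75 for Prf1 (limma, adjusted p = 0.261). With Ncr1 (-1.07) and Cd3g (-0.86), 6 of the 10 genes then had a P under 0.05, all lower, against 14.1% of all genes (7.48% lower). Without VILI 6 h replicate 1, 0 of 10 did, against 38.8% of all genes, and Gzma (0.30), Nkg7 (0.15) and Prf1 (0.39) were above control. So were Cd3e (0.38), Cd3d (0.18), Cd4 (0.16) and Cd8a (0.078), while Cd3g (-0.26) and Klrb1c (-0.0089) were below. Between 6 and 0 hours, 5 of 10 had a P under 0.05 without VILI 6 h replicate 3, all lower (Klrb1c, Gzma, Nkg7, Cd3e and Prf1), against 9.68% of all genes (4.33% lower). In these fits the lone pairs of VILI 6 h libraries share the spread estimated over all 3 groups. The direction of Gzma, Nkg7, Prf1, Cd3e, Cd3d, Cd4 and Cd8a at 6 hours thus turned with the library left out. Ncr1 stayed lower (-0.68 without replicate 1, limma, adjusted p = 0.171), and so did Cd3g.

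**Figure D4:**
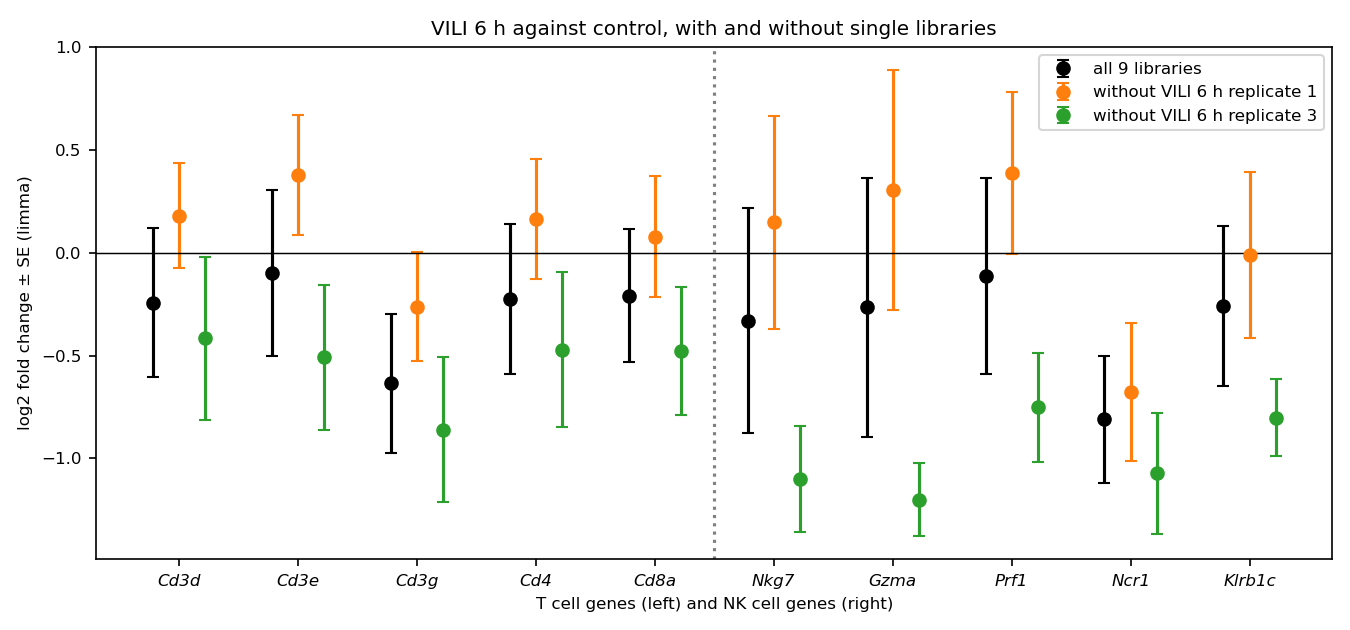
Log2 fold change with its SE (vertical axis, limma) of the 10 genes in VILI 6 h vs control, with all 9 libraries (black), without VILI 6 h replicate 1 (orange) and without VILI 6 h replicate 3 (green). Without replicate 3 the 5 NK cell genes lie between -1.20 and -0.75. Without replicate 1, Nkg7, Gzma and Prf1 lie above 0, as do Cd3d, Cd3e, Cd4 and Cd8a.

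Further genes of both cell types were read from lists, where rose and fell stand for an unadjusted P under 0.05 in limma. Of all genes tested, 6.81% rose and 9.35% fell at 0 hours against control, and 8.17% rose and 12.2% fell at 6 hours against control, and each count below is to be read against these shares. The highest and lowest values of a list are given among its genes with a mean of at least 1 FPKM. Of 18 tested genes of the T cell receptor complex and its signalling, 1 rose and 0 fell at 0 hours against control, and 2 rose and 1 fell at 6 hours against control. The genes that rose, Fyb (0.50 and 0.56 on the log2 scale) and Lcp2 (0.99 at 6 hours), are adaptors that myeloid cells also use, and the gene that fell was Cd2 (-0.55), an adhesion receptor of T and NK cells. The lowest value at 0 hours, which did not pass, was that of Cd27 (-0.37), a costimulatory receptor. The median of this list was 0.10 at 0 hours and -0.20 at 6 hours. Without VILI 0 h replicate 1 the median at 0 hours turned to -0.13, with 1 gene that rose and 1 that fell. At 6 hours the median turned to 0.15 without VILI 6 h replicate 1, with 3 that rose and 1 that fell, and was -0.39 without VILI 6 h replicate 3, with 2 that rose and 3 that fell. The constant chain genes of the T cell receptor were not analysed here.

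Of 12 tested T cell transcription factors and subset genes, 2 fell at 0 hours and 3 at 6 hours, and 0 rose. Gata3, a factor of T helper and innate lymphoid cells, was among those that fell at both times (-0.80 and -1.13). Cd40lg, the ligand by which helper T cells activate B cells, fell at 6 hours. The factor genes Tcf7 and Satb1 had the highest values among those of at least 1 FPKM, -0.02 at 6 hours and 0.41 at 0 hours, and did not pass. At 6 hours, 2 rose and 2 fell without VILI 6 h replicate 1, 0 rose and 4 fell without VILI 6 h replicate 3, and 2 fell without VILI 0 h replicate 1. At 0 hours 1 fell without VILI 0 h replicate 1, and beside the 2 that fell, 2 rose without VILI 6 h replicate 1 and 1 without VILI 6 h replicate 3.

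Of 11 homing and recirculation genes, 3 rose at 0 hours, among them S1pr1 (1.02) and Il7r (1.17), and at 6 hours 2 rose, among them S1pr1 (0.94), and 1 fell, Cxcr4 (-0.72). S1pr1 guides lymphocytes out of tissue and is also high in endothelium, and Il7r encodes a chain of the IL-7 receptor. Il7r was lower at 6 than at 0 hours (-0.98, limma, adjusted p = 0.490). Itgae, an integrin of resident T cells and some dendritic cells, had the lowest value at 6 hours (-0.94) and did not pass. The count that rose at 6 hours was 5 without VILI 6 h replicate 1 and 0 without VILI 6 h replicate 3, and 2 rose at 0 hours without VILI 0 h replicate 1.

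Of 15 NK cell receptor genes, 2 rose and 0 fell at 0 hours, and 2 rose and 4 fell at 6 hours. Those that rose at both times were Il18rap (1.14 and 1.42), a chain of the IL-18 receptor that neutrophils can also carry, and Cd244a (0.64 and 1.16), a receptor of NK cells and other leukocytes. Those that fell at 6 hours were the C-type lectin receptors Klrd1 (-0.80), Klrc2 (-0.89), Klre1 (-1.37) and Klra9 (-1.20). Klre1 was at 1.23, 0.941 and 1.52 FPKM in the control libraries and at 0.334, 0.389 and 0.514 FPKM in VILI 6 h, low also in replicate 3, where Gzma was highest. Of the 15, 6 fell at 6 hours without VILI 6 h replicate 3 and again 4 without replicate 1, and at 0 hours 1 fell without VILI 6 h replicate 3. Several Klr genes are close copies of each other, so their values are uncertain where fragments fit more than 1 copy.

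Of 12 other cytotoxic effector genes, 0 passed at 0 hours and 1 fell at 6 hours, Serpinb9 (-0.37), an inhibitor of granzyme B. Gzmb, granzyme B itself, was at 0.989, 1.02 and 21.02 FPKM in VILI 6 h and at 1.56 to 2.73 FPKM in the other libraries, and Ccl5, a chemokine of cytotoxic cells, at 5.53, 10.8 and 38.9 FPKM in VILI 6 h and 18.7 to 21.2 FPKM in control. The order of the VILI 6 h libraries was again that of Gzma, with replicate 3 highest. At 6 hours 3 fell and 0 rose without VILI 6 h replicate 3, and 2 fell and 2 rose without replicate 1. At 0 hours 2 rose when either of these libraries was left out. Srgn, the proteoglycan core of granules in many leukocytes, had the highest value at 0 hours (0.75) and did not pass.

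Of 9 NK cell transcription factors and trafficking genes, 1 rose and 4 fell at 0 hours, and 1 rose and 2 fell at 6 hours. Nfil3, a factor needed for NK cell development that many cells also induce, went from 2.42 ± 0.454 FPKM in control to 11.4 ± 5.37 and 10.7 ± 4.96 FPKM (SD, n = 3), a log2 of 2.09 and 2.02, and with both VILI groups against control it had an adjusted p under 0.05 (limma, 2.05, adjusted p = 0.0353). Those that fell at 0 hours were Tbx21 (-0.77), the factor T-bet of type 1 lymphocytes, Zeb2 (-0.79), S1pr5 (-0.95), a receptor for NK cell exit from tissue, and Itga2 (-0.98), the integrin CD49b. Tbx21 (-0.89) and Itga2 (-0.57) fell at 6 hours too. Among those with a mean of at least 1 FPKM, S1pr5 had the lowest value at 6 hours against control (-0.68) and Cx3cr1 at 6 against 0 hours (-0.69), and neither passed. At 6 against 0 hours, 2 of the 9 rose, Id2 (0.63) and Zeb2, and 0 fell, against 5.06% and 4.94% of all genes. At 6 hours 4 fell without VILI 6 h replicate 3 and 1 without replicate 1.

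Of 11 tested ligands that attract or activate T and NK cells, 1 rose at 0 hours, Il18 (0.64), and at 6 hours 3 fell, the subunit genes of IL-12 (Il12a, Il12b) and Cx3cl1. Il12a, shared with other cytokines of its family, was at -0.94 on the log2 scale. At 6 hours 2 fell without VILI 6 h replicate 3, and 1 rose and 4 fell without replicate 1. At 0 hours 1 fell when either of these libraries was left out. Cxcl10, the interferon-induced ligand of CXCR3 on T and NK cells, was at 0.564, 2.15 and 59.3 FPKM in VILI 6 h and at 0.165 to 1.39 FPKM in the other 6 libraries. Its high value was in the library with the highest Gzma. The difference from control did not pass at 0 hours (-1.41, limma, adjusted p = 0.646) or at 6 hours (1.82, limma, adjusted p = 0.455). Between 6 and 0 hours it passed the unadjusted but not the adjusted threshold (3.23, limma, adjusted p = 0.474).

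**Figure D5:**
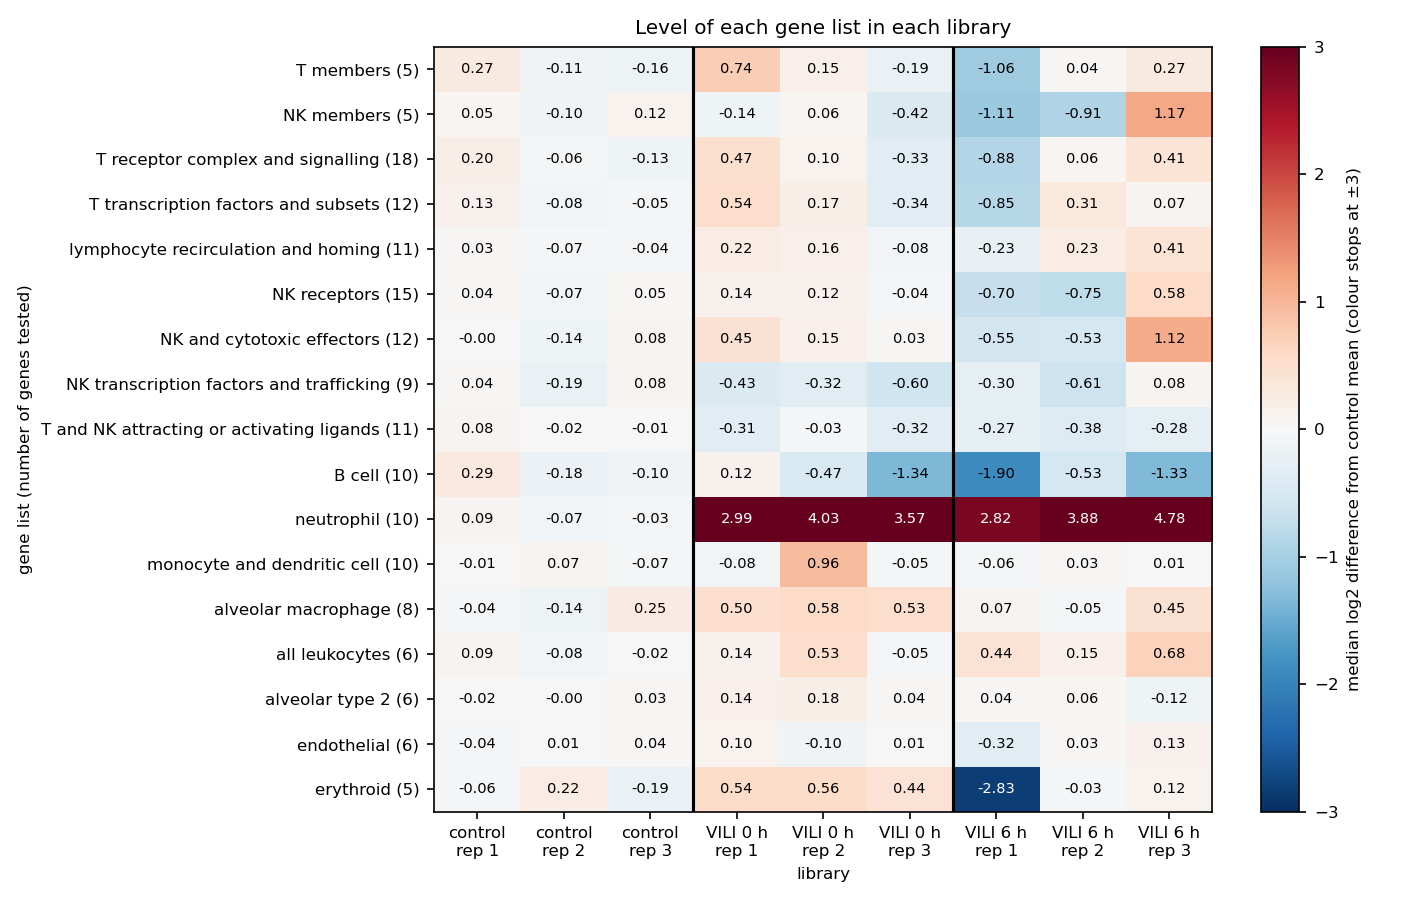
Median log2 difference from the control mean (colour scale) of each list of genes (rows) in each of the 9 libraries (columns). The rows of the 5 NK cell genes (-1.11, -0.91 and 1.17), the NK cell receptors and the cytotoxic effectors are low in VILI 6 h replicates 1 and 2 and high in replicate 3, and the neutrophil row is high in all 6 VILI libraries. In VILI 6 h replicates 1, 2 and 3 the row of NK cell transcription factors and trafficking genes is at -0.30, -0.61 and 0.08.

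Markers of other cells were read in the same way. With all 9 libraries, 7 neutrophil markers at 0 hours and 9 at 6 hours had an adjusted p under 0.05 against control. For the B cell markers it was 0 at both times. Of 10 neutrophil markers, 9 rose at both times and G0s2 fell (-0.73 and -0.87), and their summed level was 76.9 to 92.5 FPKM in control, 584 to 1048 FPKM in VILI 0 h and 512 to 1965 FPKM in VILI 6 h. Ly6g, which defines neutrophils, was at 0 in 2 control libraries and above 0 in all 6 VILI libraries. Of 10 B cell markers, 2 fell at 0 hours and 8 at 6 hours, led by Ms4a1 (-1.86 at 6 hours), which encodes CD20, and their summed level was 69.7 to 93.8, 30.5 to 86.8 and 21.2 to 58.0 FPKM. At 6 hours 8 of 10 B cell markers and 1 of 10 T and NK cell genes were lower past the unadjusted threshold. At 0 hours 4 B cell markers fell without VILI 0 h replicate 1. At 6 hours the counts were 5 and 0 without VILI 6 h replicate 1 and 5 and 6 without VILI 6 h replicate 3, and the difference between them was not tested.

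Of 6 genes of all leukocytes, 2 rose at 0 hours and 3 at 6 hours, with Rac2 highest (0.57 and 0.77), and their summed level was 186 to 210.0, 200.1 to 272 and 223 to 314 FPKM. Of 10 monocyte and dendritic cell markers, 0 passed at 0 hours, and at 6 hours 2 rose and 2 fell, Itgam highest (1.47) and Siglech lowest (-1.16). Of 8 alveolar macrophage markers, 5 rose at 0 hours and at 6 hours 1 rose and 1 fell. Of 6 alveolar type 2 cell markers, 1 rose at 0 hours and 1 fell at 6 hours, with medians of 0.11 and 0.03. Of 6 endothelial markers, Tek fell at both times and Tie1 at 6 hours, with medians of 0.03 and -0.05, and without VILI 6 h replicate 1, 2 rose at 0 hours and 3 at 6 hours. The 5 erythroid genes passed at neither time against control, but all 5 rose at 0 hours without VILI 6 h replicate 1, and 2 fell at 6 hours without VILI 6 h replicate 3. T cell genes are also expressed in thymus, and of 5 thymocyte markers 4 were below the filter, with Rag2 at 0 in all 9 libraries and Dntt at most at 0.185 FPKM. The other, Cd1d1, an antigen-presenting molecule that many other cells also carry, was at 5.36 to 6.57 FPKM in control and at 2.94 to 3.17 FPKM in VILI 6 h, and fell at 6 hours (-0.93, limma, adjusted p = 0.0257). Whether any of these cell types has a part in the values of the T and NK cell genes was not tested.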

How the data were processed

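RNA of whole lung was measured in 9 libraries, 3 per group, grouped by the treatment in the sample records. The authors filtered reads for adapters and quality, mapped them to GRCm38 (TopHat 2.0.9, Bowtie2 2.0.6), built transcripts (Scripture, Cufflinks) and deposited FPKM values from Cuffdiff 2.1.1. The records and the paper name different library kits and sequencers, and it is not settled which applies. The deposited table holds 60108 rows, and 23580 of its 23713 Ensembl IDs matched GENCODE M21. The file holds no counts. The study states read totals for each library, which are not used here, so no counting interval was computed and error is read from the 3 libraries of a group alone.

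FPKM was summed per gene and tested with the limma package (version 3.58.1, R version 4.3.3, two-sided, moderated with a trend) on log2(FPKM + 0.1), in 1 fit of 9 libraries over 19378 genes with a mean of at least 0.1 FPKM. The pseudocount understates changes of low genes. P was adjusted by Benjamini-Hochberg over all genes tested. Single genes were also tested by exact permutation. The procedure was tested on simulated data. The 10 genes and all lists were chosen with earlier results of these data known. The text names, per list and comparison, the genes with the highest and the lowest log2 fold change among those with a mean of at least 1 FPKM, and the 5 genes most like each group of 5. Other genes of a list are named because they passed the test and were chosen after their values were seen. A few genes of the lists are counted but not reported here by name. Alternatives were pseudocounts of 0.01 and 1, other filters, median-centred libraries, the row with the highest mean FPKM, moderation without a trend, a fit of only the samples compared, a replicate block and leaving out each library. Correlations without single libraries were added after seeing the data. Other tools were Python 3.11.15, pandas 2.3.3, scipy 1.17.1 and matplotlib 3.10.9.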

Additional observations from a re-analysis of the deposited data

How the results depend on the processing

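The number of the 10 genes with an unadjusted P under 0.05 was, at 0 hours vs control, 0 with the row of the highest mean FPKM and 2 with only the samples compared, where Cd3e joined Ncr1. In VILI 6 h vs control it was 0 with median-centred libraries and 0 with the row of the highest mean FPKM, and with both VILI groups vs control 0 with that row. With only the samples compared, 5094 of all genes passed at 0 hours vs control and 1210 at 6 vs 0 hours. Direction turned for Cd3e (0.027) and Prf1 (0.015) at 6 hours vs control with median-centred libraries, and with both VILI groups vs control for Cd4 with a pseudocount of 0.01 (-0.000538) and for Klrb1c with the row of the highest mean FPKM (-0.30). Beyond the row choice and the samples fitted, the cause was not tested. Median centring moved the share of higher values among all genes that passed from 42.1% to 61.2% at 0 hours vs control, from 40.1% to 58.1% at 6 hours vs control and from 38.7% to 60.2% with both groups.

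Leaving out 1 library at a time, the genes that passed among all numbered 1979 to 4493 at 0 hours vs control, 2543 to 7526 at 6 hours vs control, 1407 to 4350 at 6 vs 0 hours and 2429 to 6953 with both groups, and among the 10 genes 1 to 1, 0 to 6, 0 to 5 and 1 to 3. The T cell median ranged from -0.020 to 0.44 at 0 hours vs control, from -0.48 to 0.16 at 6 hours vs control, from -0.72 to -0.12 at 6 vs 0 hours and from -0.12 to 0.20 with both groups. The NK cell median ranged from -0.26 to -0.033 at 0 hours vs control, from -1.07 to 0.15 at 6 hours vs control and from -0.83 to 0.41 at 6 vs 0 hours. Of its genes at 0 hours vs control, Nkg7 ranged from -0.46 to -0.033, Gzma from -0.25 to -0.023 and Prf1 from -0.26 to -0.038. Ncr1 ranged there from -1.28 to -0.73 and Klrb1c from 0.26 to 0.42. At 0 hours vs control, Cd3d ranged from 0.24 to 0.71, Cd3e from 0.39 to 0.84, Cd3g from -0.40 to 0.085, Cd4 from -0.020 to 0.44 and Cd8a from -0.33 to 0.072. At 6 hours vs control, Cd3d ranged from -0.49 to 0.18, Cd3e from -0.51 to 0.38, Cd4 from -0.47 to 0.16, Cd8a from -0.48 to 0.078, Nkg7 from -1.10 to 0.15, Gzma from -1.20 to 0.30, Prf1 from -0.75 to 0.39 and Klrb1c from -0.80 to 0.035. Cd3g ranged from -0.86 to -0.26 in that comparison. At 6 vs 0 hours, Cd3d ranged from -0.96 to -0.28, Cd3e from -1.09 to -0.21, Cd3g from -0.72 to -0.12, Cd4 from -0.70 to -0.068, Klrb1c from -1.13 to -0.29, Cd8a from -0.35 to 0.20, Nkg7 from -0.83 to 0.41, Gzma from -1.04 to 0.46, Prf1 from -0.61 to 0.53 and Ncr1 from -0.10 to 0.47. With both groups, Cd3d ranged from -0.013 to 0.32, Cd4 from -0.12 to 0.20, Cd8a from -0.30 to 0.024, Gzma from -0.68 to 0.074, Prf1 from -0.45 to 0.12 and Klrb1c from -0.24 to 0.18. The highest counts over all genes came without VILI 6 h replicate 1 and the highest counts of the 10 genes without VILI 6 h replicate 3. Ncr1 stayed lower than control whichever library was left out, and lost the unadjusted threshold at 6 hours without control replicate 1 or 3 or VILI 6 h replicate 1 or 2.

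Same-numbered libraries did not deviate together (correlations of -0.221 to 0.0175 between deviations from group means), and the labels give no pairing. With a replicate block, 1, 1, 0 and 1 of the 10 genes passed, and 2816, 3485, 1693 and 3534 of all genes.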
